A study of Arabidopsis thaliana with 6 samples.

Results

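The genes described are 31 Arabidopsis thaliana genes of jasmonate synthesis and signalling, taken from the 26726 genes of the deposited expression table by their gene identifiers. They comprise 10 JAZ repressor genes, 11 synthesis genes, 1 conjugation gene, 2 turnover genes, 2 genes of perception and repressor coupling, 3 MYC transcription factor genes and 2 vegetative storage protein genes. All 31 passed the filter on low counts. RNA was sequenced from root explants kept for 5 days on callus-inducing medium (CIM) and then 7 days on shoot-inducing medium (SIM), which held a cytokinin, N6-(2-isopentenyl)adenine, at 1 mg/L, an auxin, IAA, at 0.15 mg/L, and sucrose at 10 g/L, in continuous light at 22 °C. The explants were of 3 genotypes, all grown in this way: Pro35SARR1, in which the label places ARR1 behind the 35S promoter, a promoter active in most plant cells; arr1, named as a mutant of that gene; and the wild type (WT). ARR1, which belongs to the type-B response regulators, is a transcription factor at the end of the cytokinin relay. Each genotype had 2 libraries. Since separate cultures are not stated for them, every p-value here sets a difference against library spread alone, and that spread may be technical. The labels give neither the arr1 allele nor the number of transgenic lines.

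Jasmonate is an oxylipin hormone made from linolenic acid: lipoxygenases, allene oxide synthase and allene oxide cyclases act in the plastid, and OPR3 and beta-oxidation complete the molecule in the peroxisome. JAR1 joins it to isoleucine, and the conjugate brings the F-box protein COI1 together with JAZ repressors, which are then degraded and release MYC2 and its relatives. JAZ and synthesis genes are themselves among the targets of the MYC factors, so their transcripts rise quickly after wounding in leaves, where the pathway is best known.

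The start regions of 4 genes are shown because the results below turn on them: VSP1, VSP2 and MYC2 differed between replicate numbers, and JAZ3 had the smallest adjusted p among the 31 genes in the genotype comparisons with edgeR's quasi-likelihood test without a block. Each runs from 250 bases before to 50 after the gene start in the RefSeq annotation of TAIR10.1, at chr5:8509152-8509451 on the minus strand for VSP1, chr5:8502175-8502474 on the minus strand for VSP2, chr1:11801358-11801657 on the minus strand for MYC2 and chr3:6119457-6119756 on the plus strand for JAZ3. Capitals mark the G-box CACGTG and the related AACGTG on either strand (read as CACGTT on the other one), hexamers that MYC factors are known to bind.
VSP1: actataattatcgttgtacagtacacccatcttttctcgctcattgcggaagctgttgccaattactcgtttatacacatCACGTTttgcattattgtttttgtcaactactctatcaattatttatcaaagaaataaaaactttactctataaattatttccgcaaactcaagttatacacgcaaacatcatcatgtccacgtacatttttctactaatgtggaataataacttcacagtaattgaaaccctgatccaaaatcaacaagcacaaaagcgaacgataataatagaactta
VSP2: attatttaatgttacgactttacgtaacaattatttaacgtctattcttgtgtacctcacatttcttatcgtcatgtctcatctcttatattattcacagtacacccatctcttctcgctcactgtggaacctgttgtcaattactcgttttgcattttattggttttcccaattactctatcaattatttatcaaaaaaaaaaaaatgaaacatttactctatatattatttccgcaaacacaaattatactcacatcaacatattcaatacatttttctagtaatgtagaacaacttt
MYC2: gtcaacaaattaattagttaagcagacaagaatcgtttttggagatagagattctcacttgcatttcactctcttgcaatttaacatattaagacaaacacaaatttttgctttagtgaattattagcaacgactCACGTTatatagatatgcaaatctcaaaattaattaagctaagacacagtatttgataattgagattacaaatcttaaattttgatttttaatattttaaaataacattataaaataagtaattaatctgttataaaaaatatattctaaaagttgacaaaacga
JAZ3: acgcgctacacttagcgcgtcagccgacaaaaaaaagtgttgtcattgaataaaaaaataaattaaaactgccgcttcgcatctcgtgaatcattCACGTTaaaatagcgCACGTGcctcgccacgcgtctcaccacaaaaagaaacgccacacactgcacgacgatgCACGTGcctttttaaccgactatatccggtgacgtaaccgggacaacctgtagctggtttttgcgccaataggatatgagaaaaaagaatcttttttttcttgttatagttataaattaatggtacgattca
JAZ3 held 2 matches to CACGTG and 1 to CACGTT, while MYC2 and VSP1 each held 1 match to CACGTT. VSP2 held neither in this window, although 213 aligned bases of its window were 88.3% identical to that of VSP1. Over the 31 genes CACGTG occurred in 6 windows (19.4%), those of JAZ2, JAZ3, JAZ7, JAZ8, AOS and ACX1, against 7.68% of 27443 windows of protein-coding genes. AACGTG occurred in 10 windows (32.3%), against 8.95% of all. The variant CACATG occurred in 7 (22.6%), against 12.9% of all. The type-B response regulator core AGATCT occurred in 4 (12.9%), those of AOS, AOC3, AOC4 and COI1, against 7.38% of all, and the shorter AGATT in 15 (48.4%), against 69.7% of all. A match describes letters and not binding. Deposited coordinates place the starts of VSP1, MYC2 and JAZ3 (8508957, 11800988 and 6119767) downstream of the windows shown. That of VSP2 matches RefSeq.

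Total estimated counts per library ran from 8193313 to 9381532. ARR1, the gene the genotypes target, had 1725 and 1909 CPM (TMM-scaled estimated counts over the scaled library size) in Pro35SARR1, 61.2 and 58.7 CPM in those labelled arr1, and 61.4 and 59.8 CPM in WT. The libraries labelled arr1 thus stood at the WT level of ARR1 transcript, and directions drawn from them rest on their labels. Of 18083 genes tested with edgeR's quasi-likelihood test at a Benjamini-Hochberg adjusted p under 0.05, 1170 were called in Pro35SARR1 against arr1, 541 in arr1 against WT and 16 in Pro35SARR1 against WT. Same-numbered libraries departed from the genotype means in a shared way, so a fit with the replicate number as a block is given wherever it changes a call. Whether the numbers pair the libraries could not be established, and calls with the block or between replicate numbers rest on that pairing.

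The pathway was expressed throughout. Per length, JAZ1 had the highest mean level of the set over all 6 libraries at 130.5 FPKM (fragments scaled to transcript length and library size), followed by MYC2 at 119 FPKM, JAZ12 at 75.2 FPKM, OPR3 at 69.6 FPKM and AOC3 at 66.6 FPKM. The order differed between genotypes. By genotype mean, AOC3 (94.5 FPKM) and OPR3 (86.6 FPKM) stood above JAZ12 (70.6 FPKM) in Pro35SARR1. MYC2 stood above JAZ1 in arr1. In WT VSP2 came next after JAZ1 and MYC2, at 85.2 ± 99.5 FPKM (SD, n = 2), and ACX1 (63.5 FPKM), AOS (51.0 FPKM) and NINJA (48.3 FPKM) stood above AOC3 (44.7 FPKM). JAZ1 averaged 166 ± 24.0 FPKM in Pro35SARR1, 116 ± 20.8 FPKM in arr1 and 109 ± 4.29 FPKM in WT (SD, n = 2 each). MYC2 averaged 116 ± 26.2 FPKM in Pro35SARR1, 139 ± 48.5 FPKM in arr1 and 102 ± 28.0 FPKM in WT (SD, n = 2 each). The lowest mean levels were those of LOX2 at 0.656 FPKM, AOC1 at 2.09 FPKM and AOC2 at 5.15 FPKM. Among 4 allene oxide cyclase genes AOC3 stood highest, with AOC4 next at 24.4 FPKM, and among 3 lipoxygenase genes LOX3 stood highest at 20.7 FPKM, with LOX4 at 13.9 FPKM.

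No jasmonate gene passed the threshold in any genotype comparison. In Pro35SARR1 against arr1 0 of 31 were called where 6.47% of all tested genes were (4.09% higher and 2.38% lower). In arr1 against WT 0 of 31 were called where 2.99% of all genes were (1.09% higher and 1.9% lower), and in Pro35SARR1 against WT 0 of 31 where 0.0885% were, all of them higher. At an unadjusted p under 0.05 in the same edgeR test, 9 were higher and 1 lower in Pro35SARR1 against arr1 (13.9% and 11.4% of all genes). The counts were 2 higher and 2 lower in arr1 against WT (9.63% and 12.4% of all genes), and 7 higher and 0 lower in Pro35SARR1 against WT (4.92% and 4.82%). DESeq2 called none in Pro35SARR1 against arr1, where it called 6.15% of the genes it tested as higher and 3.57% as lower. It called ACX1 as lower in arr1 against WT (2.37% of its genes higher and 4.54% lower) and AOC3 as higher in Pro35SARR1 against WT (0.961% higher and 0.405% lower). With the replicate block edgeR called 4 genes in Pro35SARR1 against arr1 (JAZ3, JAZ10, AOS and OPR3, all higher), where 20.3% of all genes were called (11.5% higher and 8.82% lower). The block gave 2 in arr1 against WT (MYC2 higher and ACX1 lower), where 15.7% of all genes were called (6.23% higher and 9.51% lower). It gave 0 in Pro35SARR1 against WT, where 2.07% were called (1.18% higher and 0.89% lower). These are bulk libraries, in which fewer cells of a type and less RNA per cell cannot be told apart.

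**Figure D1:**
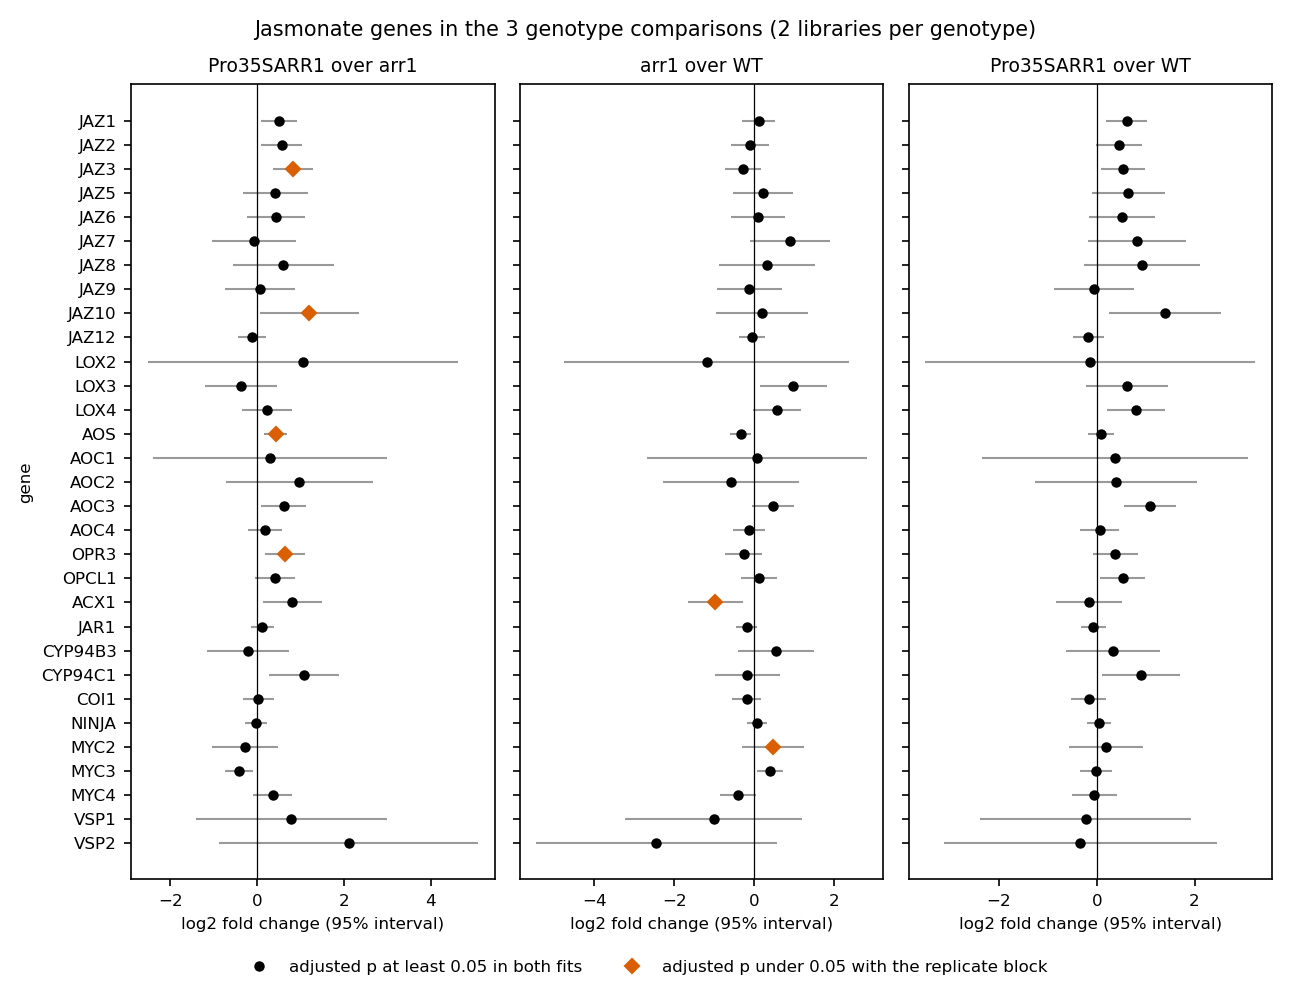
Log2 fold change of each jasmonate gene with its 95% interval in the 3 genotype comparisons (x axis; the first-named genotype over the second, each panel with its own scale), genes down the page by role, from the edgeR fit without a block. Orange diamonds mark the 4 genes of Pro35SARR1 over arr1 and the 2 of arr1 over WT whose adjusted p was under 0.05 with the replicate block; the widest intervals are those of LOX2, AOC1, VSP1 and VSP2.

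Direction was more uniform than the calls. The median log2 fold change of the 31 genes was 0.42 in Pro35SARR1 against arr1, with 24 above 0, and 0.37 in Pro35SARR1 against WT, with 21 above 0. The medians of all tested genes were −0.02 and −0.0027 in the same comparisons. The median in arr1 against WT was −0.05, with 15 of 31 above 0. Scaling by total count alone shifted the median of all genes there by 0.13 and turned the median of the jasmonate genes to 0.08. The comparisons with Pro35SARR1 share its libraries, so their medians are not separate evidence.

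Both Pro35SARR1 libraries exceeded both WT libraries for 13 of 31 genes, where 18.7% of all genes did so, and both lay below both WT libraries for 0 of 31, where 18.6% did. Both exceeded both libraries labelled arr1 for 14 of 31, where 28.9% of all genes did so, with MYC3 alone lower (29.8% of all). Without overlap, 5 were higher and 7 lower in arr1 against WT, where 27.1% and 27.3% of all genes were.

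The higher values lay mostly in Pro35SARR1 replicate 1. This library held the highest level of 17 of the 31 genes (54.8%), where it held the highest level of 16.9% of all tested genes. It was the highest for 8 of 10 JAZ genes and 8 of 11 synthesis genes. Compared within replicate 1, Pro35SARR1 over WT had a median log2 ratio of 0.64 over the 31 genes, with 24 above 0. Within replicate 2 the median was 0.13, with 18 above 0. Over arr1 the medians were 0.71 within replicate 1 and 0.06 within replicate 2. Fitted without Pro35SARR1 replicate 1, the median was 0.13 against WT and 0.12 against arr1, and without Pro35SARR1 replicate 2 it was 0.67 and 0.50. Taking Pro35SARR1 replicate 2 alone, a check chosen after seeing the data, 17 of the 31 genes were above both WT libraries, where 31.7% of all genes were, and 5 lay below both, where 33.3% were.

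**Figure D2:**
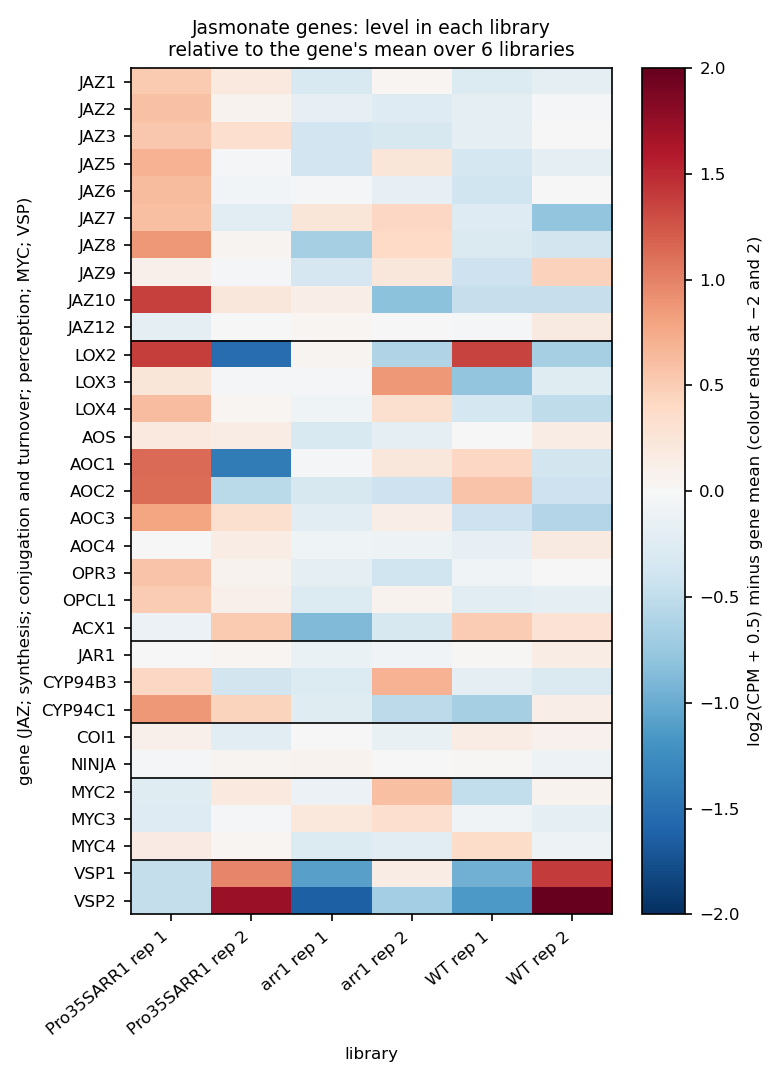
Level of each jasmonate gene (rows, grouped by role) in each library (columns) as log2(CPM + 0.5) minus the gene's mean over the 6 libraries, with colours ending at −2 and 2. Pro35SARR1 replicate 1 is the highest library for 17 of 31 genes, and VSP1 and VSP2 are high in replicate 2 of Pro35SARR1 and of WT.

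The JAZ genes encode repressors that hold MYC factors inactive until the hormone is perceived. Their median log2 fold change was 0.47 in Pro35SARR1 against arr1, 0.10 in arr1 against WT and 0.58 in Pro35SARR1 against WT. JAZ1 (AT1G19180), the JAZ gene with the highest level per length, had 222 and 177 CPM in Pro35SARR1, 124 and 158 CPM in arr1 and 127 and 134 CPM in WT. Both Pro35SARR1 libraries lay above the other 4. Its log2 fold change in Pro35SARR1 against WT was 0.61 (SE 0.167), with an edgeR adjusted p of 0.338.

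JAZ10 (AT5G13220), a repressor whose splice forms differ in how readily they are degraded, had 58.8 and 26.4 CPM in Pro35SARR1, 24.6 and 12.5 CPM in arr1 and 16.2 and 16.1 CPM in WT. Both Pro35SARR1 libraries were the highest, yet the second of them exceeded arr1 replicate 1 only narrowly. Against WT the log2 fold change was 1.39 (SE 0.465, edgeR adjusted p = 0.417; 0.0883 with the replicate block). Against arr1 it was 1.2 (SE 0.461, edgeR adjusted p = 0.180), and the replicate block gave an adjusted p of 0.0344. Without Pro35SARR1 replicate 1 these log2 fold changes were 0.70 against WT and 0.51 against arr1. A long noncoding RNA is annotated on the opposite strand of JAZ10, and use of strand in the counting is not given in the sources used here.

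JAZ3 (AT3G17860) had 18.5 and 16.0 CPM in Pro35SARR1, 9.52 and 9.93 CPM in arr1 and 11.0 and 12.7 CPM in WT. The genotypes did not overlap, with Pro35SARR1 the highest and arr1 the lowest. In Pro35SARR1 against arr1 its log2 fold change was 0.82 (SE 0.183), with an edgeR adjusted p of 0.0592, and 0.0293 with the replicate block. JAZ2 (AT1G74950), a close relative of JAZ1, had 65.8 and 45.9 CPM in Pro35SARR1, 39.2 and 36.4 CPM in arr1 and 38.6 and 42.6 CPM in WT, so that both Pro35SARR1 libraries were again the highest.

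For the remaining JAZ genes the groups mostly overlapped. JAZ5 (AT1G17380) had 64.3 and 39.2 CPM in Pro35SARR1, 30.4 and 47.0 CPM in arr1 and 31.1 and 34.9 CPM in WT. JAZ6 (AT1G72450) had 35.7 and 22.1 CPM in Pro35SARR1, 22.4 and 20.4 CPM in arr1 and 17.2 and 23.0 CPM in WT. In both, replicate 1 of Pro35SARR1 stood apart from every other library. JAZ7 (AT2G34600) had 7.41 and 3.99 CPM in Pro35SARR1, 5.67 and 6.42 CPM in arr1 and 3.86 and 2.53 CPM in WT. JAZ8 (AT1G30135), which encodes a repressor that resists degradation, had 10.0 and 5.53 CPM in Pro35SARR1, 3.17 and 7.10 CPM in arr1 and 4.22 and 4.01 CPM in WT. WT was the lowest genotype for JAZ7, without overlap, and for JAZ8 it overlapped arr1. JAZ9 (AT1G70700) had 34.8 and 31.7 CPM in Pro35SARR1, 25.5 and 37.8 CPM in arr1 and 24.1 and 44.8 CPM in WT. JAZ12 (AT5G20900) had 60.9 and 70.4 CPM in Pro35SARR1, 72.3 and 70.3 CPM in arr1 and 68.0 and 79.8 CPM in WT. These last 2 were the JAZ genes whose highest library was WT replicate 2.

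**Figure D3:**
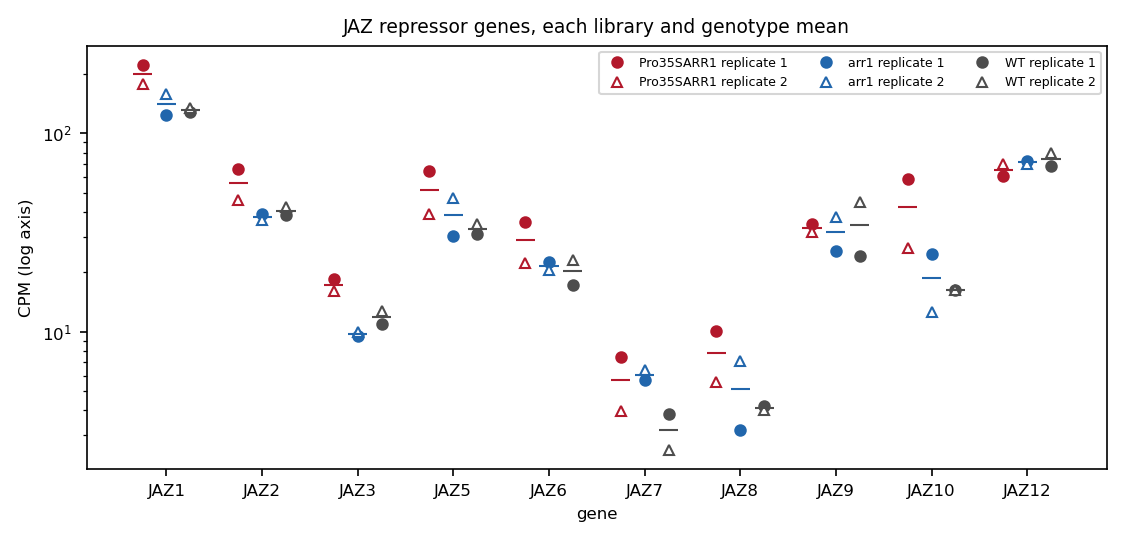
CPM of the 10 JAZ genes (log axis) in each library, with filled circles for replicate 1, open triangles for replicate 2 and short lines for the genotype mean; Pro35SARR1 is on the left, arr1 in the middle and WT on the right of each gene. Pro35SARR1 replicate 1 is the highest point for 8 of the 10 genes, JAZ9 and JAZ12 being the exceptions.

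JAZ10 has 4 annotated isoforms in the table, and isoform 1 was assigned the largest share in every library. It took 59.3% and 49.5% of the JAZ10 estimated count in Pro35SARR1, 49.4% and 44.5% in arr1 and 55.2% and 53.3% in WT. Both libraries labelled arr1 lay below the other 4, replicate 1 only narrowly, and Pro35SARR1 and WT overlapped. As shares of FPKM the separation was lost, with 54.0% in arr1 replicate 1 and 53.8% in Pro35SARR1 replicate 2. JAZ3 isoform 2 was assigned 10.4% and 0% of the JAZ3 estimated count in Pro35SARR1, 16.7% and 49.2% in arr1 and 0.00448% and 8.05% in WT. Both arr1 libraries lay above the other 4, on 13.8 and 42.9 estimated counts. Over the 31 genes the table lists 49 isoforms; 20 genes have 1 isoform and 11 have more. The shares are the quantifier's estimates, and no test was run on them.

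**Figure D4:**
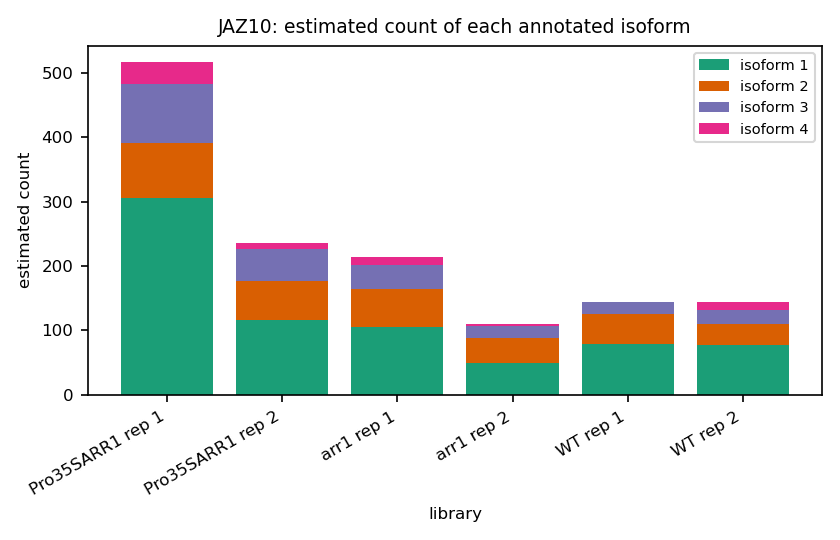
Estimated count of the 4 annotated isoforms of JAZ10 (stacked bars from 0) in each library. Isoform 1 takes the largest part of every bar, from 44.5% in arr1 replicate 2 to 59.3% in Pro35SARR1 replicate 1, and the tallest bar is Pro35SARR1 replicate 1.

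In synthesis, OPR3 (AT2G06050), the peroxisomal reductase of the precursor OPDA, had 124 and 87.1 CPM in Pro35SARR1, 72.9 and 62.8 CPM in arr1 and 79.1 and 83.2 CPM in WT. The genotypes did not overlap, with arr1 the lowest. The log2 fold change in Pro35SARR1 against arr1 was 0.64 (SE 0.187), with an edgeR adjusted p of 0.106, and 0.0335 with the replicate block. AOS (AT5G42650), allene oxide synthase, had 93.8 and 90.4 CPM in Pro35SARR1, 65.9 and 71.5 CPM in arr1 and 82.1 and 90.7 CPM in WT. Both libraries labelled arr1 were below the other 4, while Pro35SARR1 and WT overlapped. Its log2 fold change in Pro35SARR1 against arr1 was 0.42 (SE 0.107), with an edgeR adjusted p of 0.0771, and 0.0278 with the replicate block.

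AOC3 (AT3G25780), the cyclase gene with the highest level per length, had 94.0 and 67.2 CPM in Pro35SARR1, 45.8 and 59.4 CPM in arr1 and 40.2 and 35.6 CPM in WT. The genotypes were ordered without overlap. In Pro35SARR1 against WT its log2 fold change was 1.09 (SE 0.212) with an edgeR adjusted p of 0.210, the smallest of the 31 genes in that comparison. AOC1 (AT3G25760) had 3.88 and 0.257 CPM in Pro35SARR1, 1.47 and 1.85 CPM in arr1 and 2.17 and 1.05 CPM in WT. Its Pro35SARR1 replicate 2 value rested on 2.30 estimated counts. AOC2 (AT3G25770) had 8.78 and 2.44 CPM in Pro35SARR1, 2.95 and 2.72 CPM in arr1 and 5.91 and 2.74 CPM in WT. For both low genes the Pro35SARR1 libraries were the extremes, one above and one below the other 4. AOC1, AOC2 and AOC3 lie next to each other on chromosome 3 of TAIR10.1 in the same orientation, with 1330 bases between AOC1 and AOC2 and 1088 between AOC2 and AOC3. The coding sequences of AOC1 and AOC2 are 90.3% identical, and AOC1 and AOC3 share a run of 73 identical bases, so reads may have been split between them. AOC4 (AT1G13280), on another chromosome, had 27.5 and 30.4 CPM in Pro35SARR1, 25.6 and 25.5 CPM in arr1 and 24.4 and 31.1 CPM in WT.

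Of the 13-lipoxygenases, LOX3 (AT1G17420) had 68.4 and 56.2 CPM in Pro35SARR1, 55.7 and 105 CPM in arr1 and 33.0 and 48.4 CPM in WT. WT was the lowest, without overlap. Its log2 fold change in arr1 against WT was 0.98 (SE 0.341, edgeR adjusted p = 0.178). LOX4 (AT1G72520) had 62.8 and 41.8 CPM in Pro35SARR1, 38.3 and 50.9 CPM in arr1 and 31.8 and 28.5 CPM in WT, again with WT the lowest. In Pro35SARR1 against WT its log2 fold change was 0.80 (SE 0.240, edgeR adjusted p = 0.375). LOX2 (AT3G45140), the lipoxygenase abundant in leaves, had 4.22 and 0.129 CPM in Pro35SARR1, 1.36 and 0.681 CPM in arr1 and 4.10 and 0.633 CPM in WT. The Pro35SARR1 replicate 2 value rested on 1.15 estimated counts.

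OPCL1 (AT1G20510), which activates the precursor for beta-oxidation, had 97.2 and 73.2 CPM in Pro35SARR1, 56.5 and 71.6 CPM in arr1 and 58.5 and 59.7 CPM in WT, with Pro35SARR1 the highest genotype. ACX1 (AT4G16760) encodes an acyl-CoA oxidase of the first beta-oxidation step. It had 106 and 166 CPM in Pro35SARR1, 62.6 and 92.8 CPM in arr1 and 164 and 141 CPM in WT. As for AOS, both libraries labelled arr1 were the lowest, while Pro35SARR1 and WT overlapped. Its log2 fold change in arr1 against WT was −0.98 (SE 0.277), with an edgeR adjusted p of 0.121, and 0.0322 with the replicate block.

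JAR1 (AT2G46370), which makes the active isoleucine conjugate, varied little, with 56.1 and 57.8 CPM in Pro35SARR1, 51.1 and 53.8 CPM in arr1 and 57.0 and 62.5 CPM in WT. CYP94C1 and CYP94B3 encode P450 enzymes that oxidise and inactivate that conjugate. CYP94C1 (AT2G27690) had 24.3 and 18.1 CPM in Pro35SARR1, 11.0 and 8.95 CPM in arr1 and 8.08 and 14.4 CPM in WT. Pro35SARR1 was the highest genotype without overlap, with a log2 fold change of 1.08 against arr1 (SE 0.326, edgeR adjusted p = 0.112) and 0.90 against WT (SE 0.323, edgeR adjusted p = 0.451). CYP94B3 (AT3G48520) had 45.4 and 26.1 CPM in Pro35SARR1, 27.9 and 55.1 CPM in arr1 and 29.5 and 27.4 CPM in WT, with overlap throughout.

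The receptor gene COI1 (AT2G39940) had 43.2 and 34.6 CPM in Pro35SARR1, 40.4 and 36.2 CPM in arr1 and 44.4 and 42.6 CPM in WT. NINJA (AT4G28910), the adaptor that links JAZ proteins to the TOPLESS co-repressor, had 84.0 and 89.9 CPM in Pro35SARR1, 90.7 and 86.0 CPM in arr1 and 87.7 and 80.9 CPM in WT. For both genes the 95% interval of the fold change lay within 2-fold in all 3 comparisons. That held for 12 of 31 jasmonate genes (38.7%) in Pro35SARR1 against arr1, where it held for 56.9% of all tested genes. It held for 18 (58.1%) in arr1 against WT, where 58.1% of all did, and for 15 (48.4%) in Pro35SARR1 against WT, where 63.5% did.

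MYC2 (AT1G32640), the main activator of jasmonate responses, had 206 and 279 CPM in Pro35SARR1, 224 and 368 CPM in arr1 and 172 and 254 CPM in WT. The genotypes overlapped, but within each replicate number arr1 was the highest and WT the lowest. In arr1 against WT the log2 fold change was 0.47 (SE 0.309, edgeR adjusted p = 0.423), and the replicate block gave 0.46 (SE 0.0925) with an adjusted p of 0.0278. MYC3 (AT5G46760), a close relative acting beside MYC2, had 35.5 and 41.9 CPM in Pro35SARR1, 49.3 and 54.2 CPM in arr1 and 40.7 and 37.5 CPM in WT. Both libraries labelled arr1 were the highest, and the log2 fold change in Pro35SARR1 against arr1 was −0.42 (SE 0.131, edgeR adjusted p = 0.121). MYC4 (AT4G17880) ran the other way, with 30.6 and 28.1 CPM in Pro35SARR1, 22.6 and 23.4 CPM in arr1 and 35.3 and 25.5 CPM in WT, where arr1 was the lowest. Protein-coding genes overlap MYC2, COI1 and JAZ12 on the opposite strand, and a long noncoding RNA also lies opposite JAZ12.

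VSP1 and VSP2 encode vegetative storage proteins, acid phosphatase relatives long used as readouts of the MYC branch of jasmonate response. VSP2 (AT5G24770) had 30.7 and 143 CPM in Pro35SARR1, 13.5 and 26.7 CPM in arr1 and 19.1 and 199 CPM in WT. VSP1 (AT5G24780) had 15.2 and 42.3 CPM in Pro35SARR1, 9.75 and 23.5 CPM in arr1 and 10.6 and 56.6 CPM in WT. For both genes replicate 2 was the higher library in every genotype, and the genotypes overlapped except that VSP2 in Pro35SARR1 lay above both libraries labelled arr1. The log2 fold change of VSP2 was 2.11 in Pro35SARR1 against arr1 (SE 1.21, edgeR adjusted p = 0.333) and −2.44 in arr1 against WT (SE 1.22, edgeR adjusted p = 0.306). That of VSP1 in arr1 against WT was −1.02 (SE 0.894, edgeR adjusted p = 0.552). Without WT replicate 2 the arr1 against WT values were 0.07 for VSP2 and 0.64 for VSP1, so their sign rested on that library. The VSP2 value in Pro35SARR1 against arr1 was 0.62 without Pro35SARR1 replicate 2 and 2.83 without Pro35SARR1 replicate 1. The pair lies in tandem on chromosome 5 of TAIR10.1 with 5365 bases between them. Their coding sequences are 90.4% identical with a longest shared run of 54 bases, so reads may have been split between them.

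Tested between replicate numbers with genotype in the fit, replicate 2 was higher than replicate 1 for 3 of the 31 genes and lower for none, where 2.96% of all tested genes were called (1.53% higher and 1.43% lower). The log2 difference was 0.57 for MYC2 (SE 0.0756, edgeR adjusted p = 0.0302), 1.73 for VSP1 (SE 0.229, edgeR adjusted p = 0.0302) and 2.31 for VSP2 (SE 0.407, edgeR adjusted p = 0.0497). Each was higher in replicate 2 in 3 of 3 genotypes. With limma on log2(FPKM + 1) none of these was called, with adjusted p-values of 0.103, 0.108 and 0.144. Lower values in replicate 2 in every genotype, without passing the test, were seen for JAZ10 (log2 difference −0.74, edgeR adjusted p = 0.131), LOX2 (−2.62, edgeR adjusted p = 0.107), AOC2 (−1.06, edgeR adjusted p = 0.170) and COI1 (−0.18, edgeR adjusted p = 0.287). The labels do not say what the replicate numbers stand for.

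Markers of other tissues moved with the replicate number. Of the 5 leaf mesophyll markers listed, RBCS1A and RCA are in the table and the other 3 were not analysed here. Their summed level in replicate 2 and replicate 1 was 1872 and 1303 CPM in Pro35SARR1, 2327 and 1776 CPM in arr1 and 3571 and 2493 CPM in WT. Both were called higher in replicate 2 by edgeR (adjusted p = 0.0381 for RBCS1A and 0.0176 for RCA), and so was the root hair gene EXPA7 (log2 difference 1.75, adjusted p = 0.0265). The summed level of 4 root hair markers in replicate 2 and replicate 1 was 77.3 and 22.5 CPM in Pro35SARR1, 16.4 and 8.28 CPM in arr1 and 27.9 and 10.4 CPM in WT. The xylem markers IRX3, IRX1 and XCP1 were higher in 3 of 3 genotypes without being called (edgeR adjusted p = 0.0763, 0.0887 and 0.0939), and VND7 in 2. So were the epidermis markers ATML1 and PDF1 (edgeR adjusted p = 0.280 and 0.1765), while PDF2 was higher in 1. Other markers ran the other way or with 1 genotype. The phloem gene SUC2 was called lower in replicate 2 (log2 difference −0.57, edgeR adjusted p = 0.0498). Phloem markers were not uniform: APL was lower there (−0.43, edgeR adjusted p = 0.114) and SEOR1 higher in 3 of 3 genotypes (0.21, edgeR adjusted p = 0.187), neither called. The 3 endodermis markers (CASP1, SCR and MYB36) were lower in replicate 2 in 3 of 3 genotypes without being called (edgeR adjusted p = 0.133, 0.137 and 0.107). The shoot meristem marker WUS was too (edgeR adjusted p = 0.0700), while STM was higher in 2 of 3 (edgeR adjusted p = 0.738). The myrosin cell genes TGG1 and TGG2 were called higher (log2 difference 2.88 and 3.34, edgeR adjusted p = 0.0408 and 0.0187), though replicate 2 was the higher in 1 and 2 of 3 genotypes, and both were under 1 CPM outside the libraries labelled arr1. The part of all these differences in the VSP and MYC2 result was not tested.

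**Figure D5:**
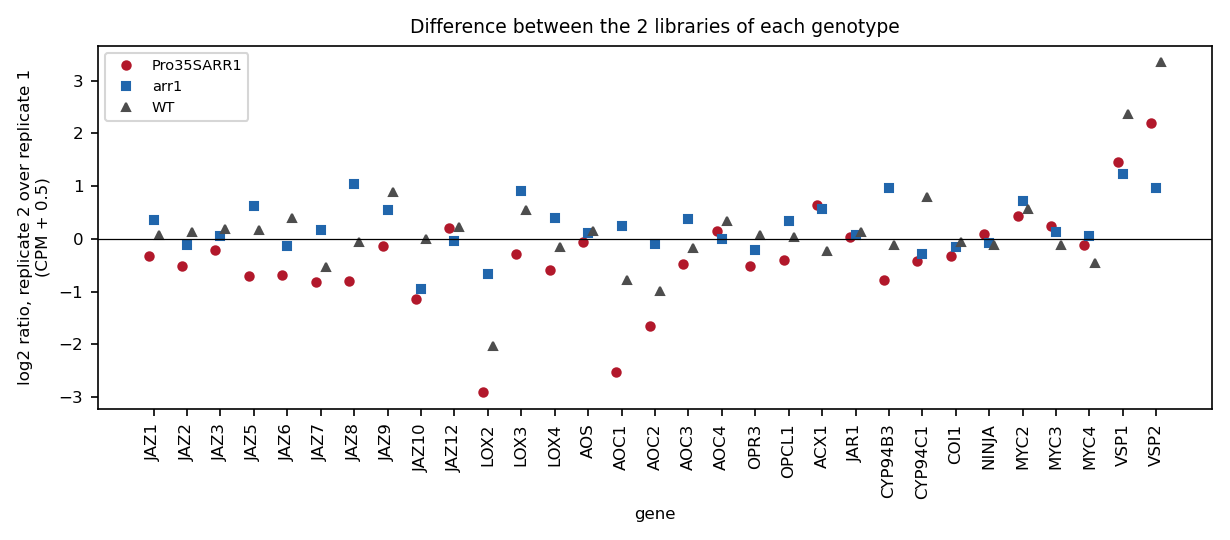
Log2 ratio of replicate 2 over replicate 1, computed on CPM + 0.5, for each jasmonate gene (x axis) in Pro35SARR1 (red circles), arr1 (blue squares) and WT (grey triangles). VSP1, VSP2 and MYC2 are above 0 in all 3 genotypes, LOX2, AOC2, JAZ10 and COI1 lie at or below 0 in all 3, and 9 of 10 JAZ genes are below 0 in Pro35SARR1, JAZ12 being the exception.

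Between replicates of Pro35SARR1 most JAZ genes lay on the same side: 9 of 10 were lower in replicate 2, with a median log2 ratio of −0.60, where all tested genes had a median of 0. In arr1 6 of 10 were higher in replicate 2 (median 0.11) and in WT 7 of 10 (median 0.15). The summed JAZ level was 578 and 438 CPM in Pro35SARR1, 357 and 406 CPM in arr1 and 342 and 394 CPM in WT.

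Markers of tissue also differed between genotypes. The summed level of 3 epidermis markers (ATML1, PDF1 and PDF2) was 34.4 and 50.2 CPM in Pro35SARR1, 528 and 562 CPM in arr1 and 27.4 and 49.6 CPM in WT. The 3 myrosin cell markers summed to 0.531 and 0.986 CPM in Pro35SARR1, 36.7 and 327 CPM in arr1 and 0.487 and 0.245 CPM in WT. The 3 phloem markers summed to 1290 and 1018 CPM in Pro35SARR1, 461 and 380 CPM in arr1 and 1348 and 860 CPM in WT. That sum was mostly SUC2, with 1151 and 874 CPM in Pro35SARR1, 309 and 225 CPM in arr1 and 1162 and 649 CPM in WT. APL did not follow it, with 28.8 and 20.8 CPM in Pro35SARR1, 35.3 and 31.7 CPM in arr1 and 45.9 and 28.9 CPM in WT, nor did SEOR1, whose libraries labelled arr1 (116 and 123 CPM) overlapped those of Pro35SARR1 (109.9 and 123 CPM). The shoot meristem marker STM had 25.8 and 19.7 CPM in arr1. It had 4.67 and 6.30 CPM in Pro35SARR1 and 3.14 and 5.38 CPM in WT. WUS was highest in Pro35SARR1 (41.0 and 29.3 CPM), and CLV3 did not pass the filter on low counts. The endodermis marker SCR was highest in arr1 (44.8 and 38.4 CPM), while for CASP1 and MYB36 arr1 and WT overlapped. The libraries labelled arr1 thus stood apart in the epidermis and myrosin cell sums and in SUC2, STM and SCR. The part of such differences in the ACX1, AOS, OPR3, JAZ3, JAZ10 and MYC2 values was not tested.

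Other genes of the pathway were read from lists outside the 31. Among other synthesis genes 11 of 13 were tested. In arr1 against WT, where 1.9% of all genes were called lower and 1.09% higher, edgeR called 3 as lower and none as higher. These were the peroxisomal beta-oxidation genes AIM1, MFP2 and KAT2, which act on jasmonate precursors and on fatty acids in general. MFP2 had 286 and 284 CPM in Pro35SARR1, 166 and 164 CPM in arr1 and 263 and 264 CPM in WT, and both libraries labelled arr1 lay below the other 4. Its log2 fold change in arr1 against WT was −0.68 (SE 0.0852, edgeR adjusted p = 0.0318). AIM1 had 172 and 158 CPM in Pro35SARR1, 120.5 and 115 CPM in arr1 and 186 and 182 CPM in WT, with a log2 fold change of −0.64 in arr1 against WT (SE 0.0958, edgeR adjusted p = 0.0392). KAT2 had 404 and 441 CPM in Pro35SARR1, 281 and 287 CPM in arr1 and 412 and 442 CPM in WT, with a log2 fold change of −0.59 in arr1 against WT (SE 0.0983, edgeR adjusted p = 0.0468). As with ACX1, the libraries labelled arr1 were the lowest for all 3. Leaving out any 1 of the 6 libraries ended these 3 calls in arr1 against WT, with log2 fold changes between −0.54 and −0.69, and so did fitting the compared genotypes alone (edgeR adjusted p = 0.0701 for MFP2, 0.0764 for AIM1 and 0.0863 for KAT2). Total-count scaling ended the calls of AIM1 (0.0654) and KAT2 (0.0616), and testing without the filter on low counts that of KAT2 (0.0565).

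The same 3 genes were the only ones of that list called in Pro35SARR1 against arr1, all higher (edgeR adjusted p = 0.0147 for MFP2, 0.0445 for AIM1 and 0.0339 for KAT2), with log2 fold changes of 0.79, 0.49 and 0.57. Of all genes 4.09% were called higher in that comparison. The 2 comparisons share the libraries labelled arr1, so they are not separate evidence. In Pro35SARR1 against WT none of the 11 was called, where 0.0885% of all genes were. With the replicate block ACX3, another acyl-CoA oxidase gene, and PXA1, whose product imports substrates into the peroxisome, were higher in Pro35SARR1 against arr1 (edgeR adjusted p = 0.0197 and 0.0422). OPR1, a reductase related to OPR3 with little role in jasmonate synthesis, was lower there (0.0162) and higher in arr1 against WT (0.0139). Of all genes the block called 11.5% as higher and 8.82% as lower in Pro35SARR1 against arr1, and 6.23% as higher in arr1 against WT.

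Of other turnover genes 6 of 9 were tested. IAR3, an amidohydrolase that cleaves the isoleucine conjugate, was called higher in Pro35SARR1 against arr1, where 4.09% of all genes were. It had 78.1 and 71.4 CPM in Pro35SARR1, 44.3 and 46.8 CPM in arr1 and 70.5 and 64.6 CPM in WT, with arr1 the lowest and a log2 fold change of 0.71 (SE 0.110, edgeR adjusted p = 0.0279). With the block IAR3 and ILL6, its relative, were lower in arr1 against WT (edgeR adjusted p = 0.0180 and 0.0322) and ILL6 was higher in Pro35SARR1 against arr1 (0.00339). Of other signalling genes 8 of 10 were tested, JAZ4 and JAZ11 among them, and none was called in any comparison by edgeR without the block. The block called the co-repressor gene TPL as lower and the defence repressor gene JAV1 as higher in Pro35SARR1 against arr1 (edgeR adjusted p = 0.0178 and 0.0361), and TPL as higher in arr1 against WT (0.0359). These block calls stand beside 11.5% of all genes higher and 8.82% lower in Pro35SARR1 against arr1. In arr1 against WT the shares were 6.23% higher and 9.51% lower.

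Of other response genes 4 of 8 were tested, and THI2.1 and PDF1.2, whose products are defence peptides, were at 0 in all 6 libraries. JR1, a jasmonate-inducible lectin gene, had 278 and 318 CPM in Pro35SARR1, 527 and 567 CPM in arr1 and 346 and 472 CPM in WT. The libraries labelled arr1 were the highest, and the log2 fold change in Pro35SARR1 against arr1 was −0.88 (SE 0.171, edgeR adjusted p = 0.0439). Of all genes 2.38% were called lower in that comparison. With the block JR1 was also higher in arr1 against WT (edgeR adjusted p = 0.0414), where 6.23% of all genes were called higher. TAT3, an aminotransferase gene induced by jasmonate, had 24.3 and 9.65 CPM in Pro35SARR1, 0.453 and 0.195 CPM in arr1 and 3.74 and 0.105 CPM in WT. Its arr1 values rested on 3.95 and 1.71 estimated counts and that of WT replicate 2 on 0.938. Pro35SARR1 was the highest genotype for TAT3. EdgeR called TAT3 as higher there against arr1 with the block (adjusted p = 0.00742), where 11.5% of all genes were, and not without (adjusted p = 0.0703). Leaving out any 1 library of Pro35SARR1 or arr1 ended the calls of MFP2, AIM1, KAT2, IAR3 and JR1 between these genotypes, with the direction of each as before. Without the filter on low counts the edgeR adjusted p was 0.0538 for AIM1 and 0.0594 for JR1. AIM1 was also lost under total-count scaling (0.0853) and with the compared genotypes alone (0.0554), and JR1 with limma (0.0653).

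For arr1 against WT, 437 genes stand in the authors' deposited table, each with an adjusted p of at most 0.00983 and a log2 fold change of at least 1.00 in size, and 0 of the 31 jasmonate genes are among them.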

How the data were processed

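The 6 libraries are Illumina RNA-seq of root explants; sample titles gave genotype and replicate number. CASAVA and DESeq appear in the submitters' processing notes with neither version nor role. Aligner, quantifier, build and strand setting: not given in the sources used here. Per the file headers, the deposited table gives 35593 isoforms, each by estimated count and by FPKM. In genes with 1 isoform, 85.8% to 87.2% of low deposited values were whole multiples, within 0.02, of a step per library (0.855 to 1.15), so the estimated counts are scaled reads. For arr1 against WT the authors deposited adjusted p-values with log2 fold changes. Gene positions in the files matched TAIR10.1 within 500 bases at both ends for 92.4% of 25946 genes.

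Estimated counts were summed per gene and rounded, passed through filterByExpr, given TMM factors and tested with edgeR 4.0.16 in R 4.3.3 (limma 3.58.1, DESeq2 1.42.0), with 1 mean per genotype, no block, 3 residual degrees of freedom and a common BCV (coefficient of biological variation) of 0.214. Each SE was computed as the log2 fold change over the square root of F. A floor of 3 counts is at most 0.345 CPM, counting error only. Deviations from genotype means of libraries with the same number correlated across 17763 genes. Pearson's r was 0.325 (arr1 and WT), 0.564 (Pro35SARR1 and WT) and 0.331 (Pro35SARR1 and arr1). The numbers were therefore treated as pairing the libraries, from the titles and this check. With 2 libraries per genotype the deviations are equal and opposite, so another numbering within a genotype would only turn the sign of r. The check therefore cannot establish the pairing. On simulated data, 90% of 4-fold and 30% of 2-fold changes were called in arr1 against WT (17809 genes), 90% and 22% in Pro35SARR1 against WT (17823 genes) and 83% and 22% in Pro35SARR1 against arr1 (17815 genes). The simulated counts had the common BCV for every gene and no difference between replicate numbers, unlike the libraries here. The 31 genes, the gene lists and the markers were chosen with earlier results of these data known. All 31 are named; genes of the other lists are named where called with or without the block, up to 6 per list. Alternatives were the replicate block, DESeq2, other scaling, no filter, limma on log2(FPKM + 1), estimated counts divided by the step, the compared genotypes alone, leaving out each library, and isoform shares from FPKM.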

Additional observations from a re-analysis of the deposited data

How the results depend on the processing

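No jasmonate gene was called in any genotype comparison under other scaling, no filter, limma, division by the step or the compared genotypes alone. In Pro35SARR1 against arr1 limma called 1312 of all genes, and division by the step 1185. Leaving out a library leaves 1 for its genotype, so an absence of calls there decides nothing. The numbers were treated as pairing the libraries, which the labels do not state. With the replicate block edgeR called 4, 2 and 0 jasmonate genes in Pro35SARR1 against arr1, arr1 against WT and Pro35SARR1 against WT. Of all genes it called 3679, 2847 and 375. In the same order DESeq2 called 0, 1 and 1 jasmonate genes and 1838, 1365 and 270 genes, and leaving out 1 library gave 5 to 1082, 0 to 37 and 1 to 4 genes. In arr1 against WT total-count scaling gave 346 genes (218 higher and 128 lower, where TMM gave 198 and 343), no filter 312 and the compared genotypes alone 96. Total-count scaling moved the split in Pro35SARR1 against arr1 to 503 higher and 574 lower, where TMM gave 739 and 431. In Pro35SARR1 against WT limma gave 29 genes and the compared genotypes alone 2. Limma called 0 jasmonate genes between replicate numbers, and dividing by the step took VSP2 to an adjusted p of 0.0516. With 1 library left out the log2 fold change in arr1 against WT ran from −3.32 to 0.069 for VSP2 and from −1.78 to 0.64 for VSP1, positive without WT replicate 2. The median of the jasmonate genes in arr1 against WT was 0.07 without WT replicate 1 and 0.12 without WT replicate 2. With 1 library left out, an alternative chosen after seeing the data, 15 to 23 jasmonate genes were higher without overlap and 3 to 7 lower in Pro35SARR1 against arr1 (36.9% to 40.4% and 39.3% to 42.1% of all genes). In arr1 against WT 7 to 11 were higher and 10 to 15 lower (36.4% to 41.1% and 36.2% to 41.2% of all genes), and in Pro35SARR1 against WT 15 to 20 were higher and 2 to 6 lower (31.7% to 35.4% and 33.3% to 36.4%). Of 382 refits of the 29 fold changes and replicate differences listed for such refits, 317 kept direction and side of the threshold, 55 lost the call, 8 gained it and 2 reversed. JAZ10 isoform 1 took 52.1% in arr1 and 59.5% in WT as shares of FPKM, and 47.0% and 54.3% as shares of counts. Where a cause is not plain from the setting, the cause was not tested. In the simulated data, with 2 libraries per genotype, most 2-fold changes were missed.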

Other observations

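Early wound and touch genes, which respond to handling as well as to jasmonate, were read as a list of 10. In arr1 against WT all 10 had a log2 fold change above 0, with a median of 0.77 (median of all tested genes −0.002). The summed level was 1323 and 1314 CPM in Pro35SARR1, 1337 and 1893 CPM in arr1 and 1047 and 993 CPM in WT, highest in arr1 replicate 2. In Pro35SARR1 against WT 8 of the 10 were above 0, with a median of 0.24. In arr1 replicate 1 ERF109, ZAT10, ZAT12 and TCH2 were not above both WT libraries, while the rest were. EdgeR called none of the 10 in arr1 against WT without the replicate block (smallest adjusted p = 0.0581). With the block 5 were higher: ZAT10 (adjusted p = 0.0274), TCH3 (0.0281), TCH4 (0.0449), WRKY53 (0.0473) and MPK3 (0.0216), where 6.23% of all genes were called higher. TCH3, a calmodulin-like gene induced by touch, had 386 and 352 CPM in Pro35SARR1, 209 and 315 CPM in arr1 and 140.4 and 119.6 CPM in WT. WT was the lowest and Pro35SARR1 the highest, without overlap. The block called TCH3 in Pro35SARR1 against WT (edgeR adjusted p = 0.0351), where 1.18% of all genes were called higher. ZAT10, a zinc finger gene of stress and wounding, had 109 and 177 CPM in Pro35SARR1, 141 and 303 CPM in arr1 and 105 and 146 CPM in WT, and was higher in replicate 2 than in replicate 1 in 3 of 3 genotypes (log2 difference 0.77, edgeR adjusted p = 0.0427). In Pro35SARR1 against arr1 the block called 4 of the 10 as lower: ZAT10, TCH2, WIND1 and MPK3 (edgeR adjusted p = 0.0434, 0.0369, 0.0193 and 0.0459), where 8.82% of all genes were.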
